A study of Mus musculus with 5 samples.

Results

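Described here are 10 genes of the NF-κB pathway, set by name with earlier results of these data known: 4 subunits (*Nfkb1*, *Nfkb2*, *Rela* and *Relb*), 4 feedback regulators (*Nfkbia*, *Nfkbiz*, *Tnfaip3* and *Birc3*) and 2 adhesion targets (*Icam1* and *Vcam1*). All 10 are among the 21835 genes of the deposited table, and 9 were expressed highly enough to be tested.

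NF-κB is a family of dimeric transcription factors built from the subunits p50 (made from *Nfkb1*), p52 (made from *Nfkb2*), p65 (*Rela*), RelB (*Relb*) and c-Rel (*Rel*). In resting cells IκB proteins hold the dimers in the cytoplasm, and stimulation by ligands such as TNF or IL-1 leads the IκB kinases to mark IκB for destruction, which frees the dimers to enter the nucleus. Many of the genes they switch on feed back on the pathway, and in fibroblasts they also include chemokines, IL-6 and the leukocyte adhesion molecules ICAM-1 and VCAM-1.

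Cultured murine lung cancer-associated fibroblasts (CAFs) carrying an empty lentiviral vector (CAF-vec, 2 samples, wild-type control in the labels) were compared with CAFs in which a lentiviral vector overexpresses miR-200a, miR-200b and miR-429, which form 1 cluster (CAF-200, 3 samples). CAF is given as the cell line of all 5 samples, which shared a serum-containing medium with no stimulus named, and the transduced cells were drug-selected before RNA was taken for stranded mRNA sequencing. The vector is described with neomycin resistance in the labels and with hygromycin resistance in the methods. The methods have the construct introduced into lung fibroblasts where the labels say CAFs, and describe RNA taken in triplicate where the table holds 2 CAF-vec samples. No source says whether samples of a group came from separate transductions or cultures, so *p* values measure only the spread between these samples, which may be technical. The question was which mRNAs change when CAFs carry miR-200.

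The overexpressed miRNAs fall into 2 seed groups, since miR-200b and miR-429 share a seed and that of miR-200a differs from it. Their mature sequences from RefSeq (GRCm38.p6, minus strand of chromosome 4) are shown because the seed, bases 2 to 8 in capitals, sets which mRNAs can pair with them.
miR-200b-3p (chr4:156055685-156055706): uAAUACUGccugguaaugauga
miR-429-3p (chr4:156053916-156053937): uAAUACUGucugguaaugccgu
miR-200a-3p (chr4:156054911-156054932): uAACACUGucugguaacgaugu

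A 7-base match to either seed was searched for in the longest annotated 3′-UTR of each gene in GENCODE M21 (GRCm38). *Tnfaip3* was the 1 gene of the 10 to hold any, with 1 match to each seed, and 9 held none. Among 12060 tested genes with a 3′-UTR, 30.3% held a match to at least 1 seed (15.7% for miR-200b and miR-429, 20.9% for miR-200a). The 3′-UTR of *Tnfaip3* is also the longest of the 10 at 1821 bases, against 336 bases for *Relb* and a median of 1174 bases over tested genes. The sites lie at positions 697 and 996 of the 3′-UTR on the minus strand of chromosome 10 and are shown with the match in capitals.
*Tnfaip3* site for miR-200a (chr10:19002017-19002046): gggaagacatgcCAGTGTTggccattgtct
*Tnfaip3* site for miR-200b and miR-429 (chr10:19001718-19001747): gatttccttctgCAGTATTttcttgagata

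Values are in CPM, counts that the authors scaled to a common library total, so that they compare 1 gene between samples and not different genes. The columns of the 2 groups differ at their low end: in CAF-200 the same 6127 genes were at 0 in all 3 samples and 0 genes were at 0 in some of them, whereas 1205 genes were at 0 in 1 of the CAF-vec samples. Values above 0 but under 0.5 times a sample's commonest low value were listed for 817 to 1108 genes in the CAF-200 samples and for 0 in the CAF-vec samples. Low values and the spread within a group may therefore not mean the same in both groups, and the sources used here do not say how this arose. Differences are given as the log2 fold-change of CAF-200 over CAF-vec on log2(CPM + 0.5), from limma fitted over the 12175 genes that reached 0.5 CPM in 2 samples or more and with Benjamini-Hochberg adjustment over all of them. Genes were read at the thresholds that the study used for its volcano plot, an adjusted *p* under 0.01 with a log2 fold-change beyond 1, and also at an adjusted *p* under 0.05 alone. As bulk RNA was measured, fewer expressing cells and less RNA per cell cannot be told apart.

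None of the 9 tested genes passed both thresholds of limma, which 2.37% of all tested genes did upward and 2.35% downward, whereas 5 of the 9 had an unadjusted *p* under 0.05, as did 44.9% of all tested genes. At an adjusted *p* under 0.01 alone, *Nfkbia* and *Nfkbiz* were higher (4.45% of all tested genes were) and 0 were lower (5.57% of all tested genes were), and neither passed 0.01 when any 1 CAF-200 sample was left out, fits in which 0 to 1 of all genes were higher by that rule. At an adjusted *p* under 0.05, 3 feedback regulators rose (*Nfkbia*, *Nfkbiz* and *Tnfaip3*; 11.9% of all tested genes were higher by that rule) and 1 subunit fell (*Nfkb1*; 18.6% of all tested genes were lower). The CAF-200 values lay above both CAF-vec values for 5 genes and below both for 2, where 24.3% and 37.3% of all tested genes did so. The median log2 fold-change of the 9 genes was 0.12, and that of all tested genes was -0.094. Since 61.6% of tested genes did not overlap between the groups, that separation alone does not set a gene apart from the rest.

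**Figure D1:**
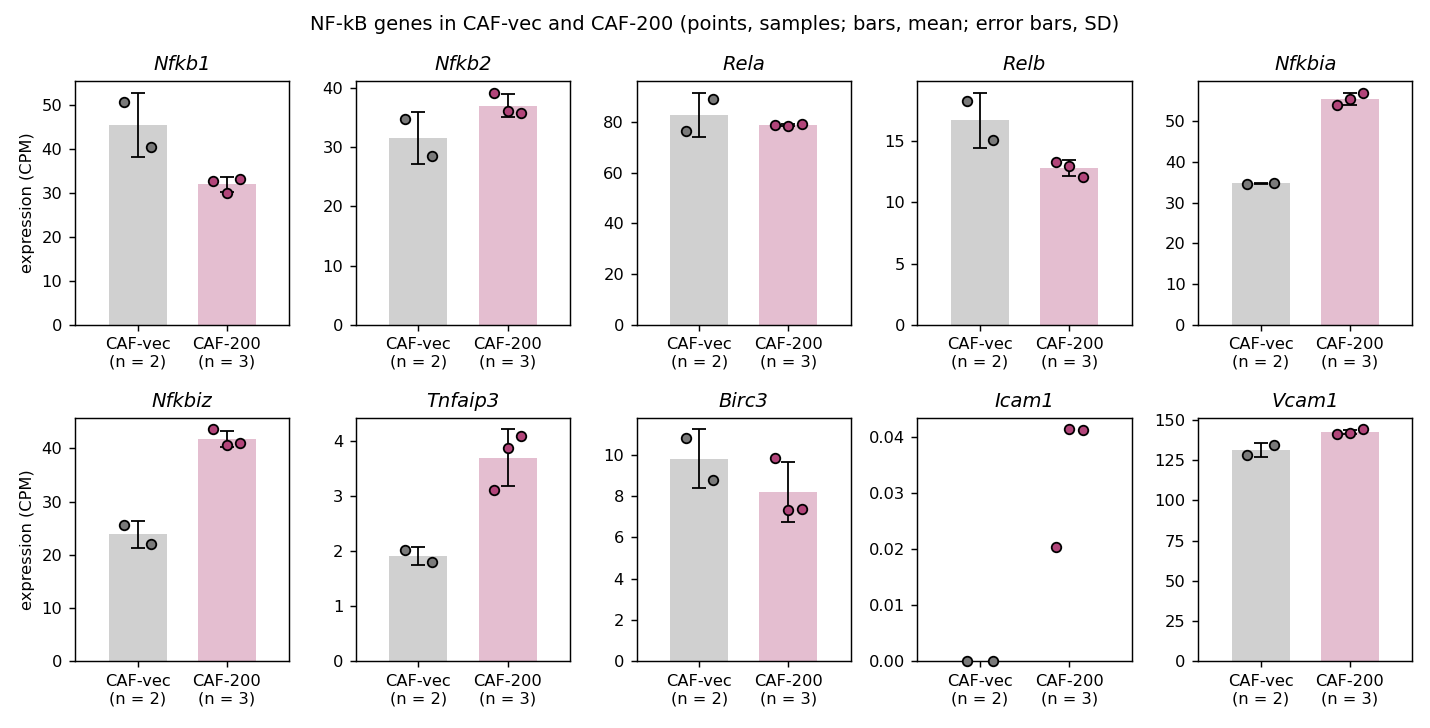
Expression in CPM (linear axes from 0, a separate scale for each gene) of the 10 genes in the 2 CAF-vec and 3 CAF-200 samples. Points are samples, bars are means and error bars are SD, with points alone for *Icam1*; *Nfkbia*, *Nfkbiz* and *Tnfaip3* are higher in each CAF-200 sample, *Nfkb1* and *Relb* are lower, and *Icam1* stays below 0.05 CPM in every sample.

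Among the subunits, *Rela*, which encodes the p65 subunit with a transactivation domain, stood at 76.7 and 89.1 CPM in CAF-vec against 79.0, 78.6 and 79.4 CPM in CAF-200. The CAF-200 values lay between the CAF-vec values. Its log2 fold-change was -0.06 (95% interval -0.30 to 0.17, adjusted *p* = 0.626, limma), and the sign turned with quantile normalization (0.0239), with centring on sample medians (0.0319) and without CAF-vec replicate 2 (0.0427).

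*Nfkb1* (ENSMUSG00000028163, chr3:135584655-135691547, GRCm38), the source of p105 and its processed form p50, was at 50.8 and 40.5 CPM in CAF-vec and at 32.7, 30.0 and 33.3 CPM in CAF-200. Each CAF-200 sample was below both CAF-vec samples. Means were 45.7 ± 7.30 CPM (SD, n = 2) in the controls and 32.0 ± 1.80 CPM (SD, n = 3) with miR-200, and limma gave a log2 fold-change of -0.50 with a standard error of 0.125 and an adjusted *p* of 0.0323. That call was lost when any 1 CAF-200 sample was left out (adjusted *p* = 0.103, 0.126 and 0.104, limma, without replicates 1, 2 and 3), in fits where 3.96% to 5.74% of all genes were lower, and the log2 fold-change was -0.34 without CAF-vec replicate 1 and -0.66 without CAF-vec replicate 2.

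*Relb*, the partner of p52 in the non-canonical pathway, was at 18.3 and 15.1 CPM in CAF-vec and at 13.3, 13.0 and 12.1 CPM in CAF-200. The groups did not overlap, and the log2 fold-change was -0.36 (95% interval -0.65 to -0.07), but the adjusted *p* of 0.0663 (limma) missed the threshold. Limma gave -0.50 without CAF-vec replicate 2 and -0.22 without CAF-vec replicate 1.

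*Nfkb2*, which encodes p100 and p52 and is itself a target of NF-κB, was at 34.7 and 28.5 CPM in CAF-vec and at 39.2, 36.1 and 35.7 CPM in CAF-200. The lowest CAF-200 sample was just above the higher CAF-vec sample. The log2 fold-change was 0.23 (95% interval -0.06 to 0.51, adjusted *p* = 0.175, limma). It passed 0.05 with quantile normalization (0.34, adjusted *p* = 0.0448, limma), where 14.7% of all genes were higher. The log2 fold-change was 0.37 without CAF-vec replicate 1 and 0.0899 without CAF-vec replicate 2. The annotated end of *Nfkb2* overlaps *Psd* on the opposite strand, and the strand setting of the counting is not given in the sources used here. The remaining subunit gene, *Rel*, was at 3.54 and 3.96 CPM in the controls and at 4.81 to 4.99 CPM with miR-200 (log2 fold-change 0.34, adjusted *p* = 0.0615, limma).

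Of the 4 feedback regulators, 3 rose. *Nfkbia* (ENSMUSG00000021025, chr12:55489410-55492647, GRCm38) encodes IκBα, the inhibitor that NF-κB resynthesizes to end its own response. It was at 34.6 and 34.8 CPM in CAF-vec and at 53.9, 55.5 and 57.0 CPM in CAF-200. The means were 34.7 ± 0.136 CPM (SD, n = 2) and 55.5 ± 1.56 CPM (SD, n = 3), or a ratio of 1.60. An SD from 2 values measures spread poorly. Over all tested genes the CAF-vec pair differed more (SD of log2 differences 0.49) than any CAF-200 pair (0.19 to 0.2). Limma put the log2 fold-change at 0.67 with a standard error of 0.0797 and an adjusted *p* of 0.00494, and it stayed between 0.65 and 0.69 with each sample left out in turn, at an adjusted *p* of 0.000168 to 0.0439.

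*Nfkbiz* (ENSMUSG00000035356, chr16:55811375-55838899, GRCm38) encodes IκBζ, an inducible nuclear member of the IκB family that acts with p50 as a co-regulator of genes such as *Il6*. It was at 25.7 and 22.1 CPM in CAF-vec and at 43.6, 40.7 and 41.1 CPM in CAF-200, so that every CAF-200 sample was above both controls. The means were 23.9 ± 2.56 CPM (SD, n = 2) and 41.8 ± 1.56 CPM (SD, n = 3), or a ratio of 1.75. Limma put the log2 fold-change at 0.80 with a standard error of 0.101 and an adjusted *p* of 0.0057. With each sample left out it was 0.69 to 0.90, and the adjusted *p* was at most 0.043.

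*Tnfaip3* (ENSMUSG00000019850, chr10:19000910-19015657, GRCm38) encodes A20, a ubiquitin-editing enzyme that shuts off signaling above the IκB kinases. It was at 2.03 and 1.80 CPM in CAF-vec and at 3.12, 3.88 and 4.10 CPM in CAF-200, at a low level but without overlap. Means were 1.91 ± 0.161 CPM (SD, n = 2) in the controls and 3.70 ± 0.515 CPM (SD, n = 3) with miR-200, or a ratio of 1.93. Limma put the log2 fold-change at 0.79, a size that the added 0.5 CPM understates at this level, with a standard error of 0.152 and an adjusted *p* of 0.0153. The call was lost without CAF-200 replicate 2 (0.76, adjusted *p* = 0.0734, limma) and without CAF-200 replicate 3 (0.72, adjusted *p* = 0.0740, limma), where 4.09% and 3.56% of all genes were higher. This was the gene with a match to both seeds in its 3′-UTR, and it was higher in 3 of 3 CAF-200 samples, as were 24.3% of all tested genes. Over tested genes with a 3′-UTR, the median log2 fold-change was -0.066 with a match to either seed and -0.11 without.

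*Birc3*, which encodes cIAP2, a ubiquitin ligase of the TNF receptor complex, differed from these 3 genes in its values. It was at 10.8 and 8.78 CPM in CAF-vec and at 9.84, 7.30 and 7.36 CPM in CAF-200. The groups overlapped, with a log2 fold-change of -0.25 (95% interval -0.68 to 0.17, adjusted *p* = 0.294, limma).

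**Figure D2:**
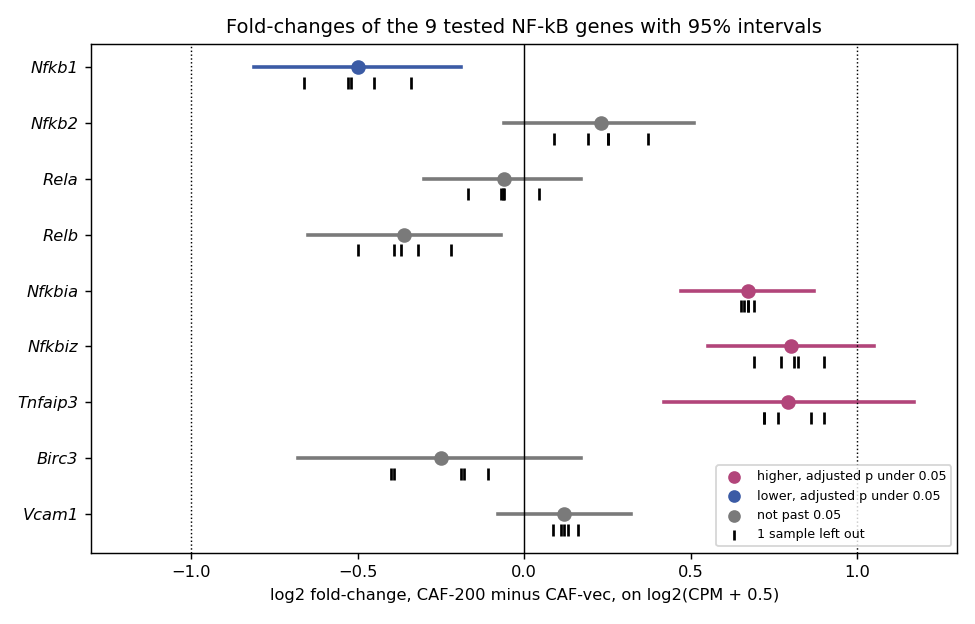
Log2 fold-changes (CAF-200 minus CAF-vec, on log2(CPM + 0.5)) of the 9 tested genes, as points with 95% intervals from limma; black ticks are the values with 1 sample left out and dotted lines mark 1 and -1. *Nfkbia*, *Nfkbiz* and *Tnfaip3* lie to the right of 0 between 0.67 and 0.80, *Nfkb1* lies to the left at -0.50, and the ticks of *Nfkbia* are the most tightly grouped.

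Ratios of genes within a sample do not depend on how samples were scaled to each other. They were set side by side as a description of inhibitor against subunit mRNA, each as a ratio of CPM values that compares samples and not gene levels. *Nfkbia* over *Rela* was 0.452 and 0.391 in CAF-vec and 0.683, 0.707 and 0.718 in CAF-200. *Nfkbia* over *Nfkb1* was 0.681 and 0.859 in CAF-vec and 1.65, 1.85 and 1.71 in CAF-200, and *Nfkbiz* over *Nfkb1* was 0.506 and 0.545 in CAF-vec and 1.33, 1.36 and 1.23 in CAF-200. In these 3 ratios each CAF-200 sample lay above both CAF-vec samples, with means 1.67-, 2.26- and 2.49-fold higher. The ratio of the precursor genes, *Nfkb2* over *Nfkb1*, was likewise lower in both CAF-vec samples (0.683 and 0.704) than in the CAF-200 samples (1.20, 1.21 and 1.07). Every CAF-200 sample lay below both controls for *Nfkb1* alone and above both for *Nfkbia*, *Nfkbiz* and *Nfkb2* alone. The separation of the ratios over *Nfkb1* therefore follows from the single genes. How often ratios of other gene pairs separate was not counted. The ratio of *Tnfaip3* over *Birc3* was 0.187 and 0.205 in CAF-vec and 0.317, 0.532 and 0.556 in CAF-200, with a wider spread within CAF-200 than the other ratios showed. The ratios of *Nfkb1* and *Relb* to *Rela* had lower means in CAF-200, *Nfkb1* over *Rela* being 0.663 and 0.455 in CAF-vec against 0.414, 0.381 and 0.420 in CAF-200, and *Relb* over *Rela* 0.238 and 0.169 against 0.169, 0.166 and 0.153. *Nfkb2* over *Rela* overlapped between the groups, at 0.453 and 0.320 in CAF-vec against 0.497, 0.460 and 0.450 in CAF-200.

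**Figure D3:**
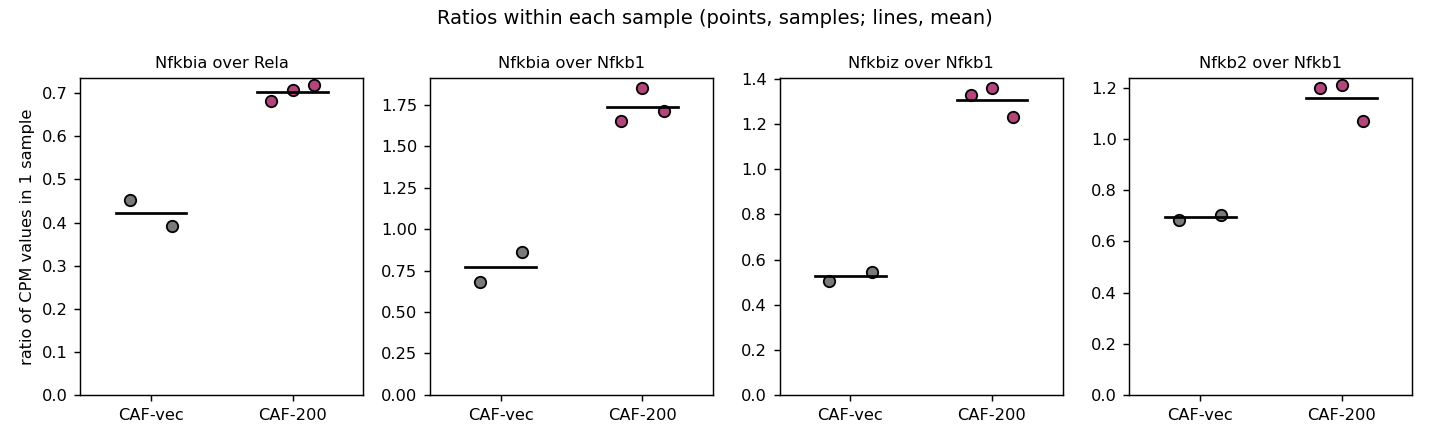
Ratios of CPM values within each sample (axes from 0) for *Nfkbia* over *Rela*, *Nfkbia* over *Nfkb1*, *Nfkbiz* over *Nfkb1* and *Nfkb2* over *Nfkb1*. Points are samples and lines are means; in these 4 panels the 3 CAF-200 points lie above the 2 CAF-vec points, and the ratios of *Nfkb1* and *Relb* to *Rela*, which are lower in CAF-200, are not drawn.

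Of the adhesion targets, 1 was tested and 1 was too low. *Vcam1* (ENSMUSG00000027962, chr3:116109949-116129688, GRCm38), the ligand of the α4β1 integrin, was at 128 and 134 CPM in CAF-vec and at 141, 142 and 144 CPM in CAF-200. All CAF-200 samples were above both controls, though by little, with means of 131 ± 4.48 CPM (SD, n = 2) and 142 ± 1.39 CPM (SD, n = 3). The log2 fold-change was 0.12 (95% interval -0.08 to 0.32, adjusted *p* = 0.289, limma), and over the alternatives it ranged from 0.0864 to 0.22.

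*Icam1* (ENSMUSG00000037405, chr9:21015985-21028817, GRCm38), the ligand of the β2 integrins, had a listed value of 0 in either control and of 0.0204, 0.0413 and 0.0412 CPM with miR-200. These are 2.0, 3.9 and 3.9 times the commonest low value of the same sample (0.0102 to 0.0105 CPM). *Icam1* was too low to be tested and no fold-change is given. Both adhesion genes overlap an annotated antisense gene (*Gm47079* for *Icam1* and *Gm43109* for *Vcam1*), and *Nfkb1* overlaps *Gm43430* on its own strand, so reads could be shared in the counting. Other leukocyte adhesion genes were also low: *Icam2*, *Icam4*, *Madcam1* and *Pecam1* were below the level for testing. *Selp* and *Sele*, the endothelial selectins, were at 0.228 to 1.37 CPM and 0.588 to 1.26 CPM over the 5 samples, with adjusted *p* of 0.0508 and 0.054 (limma).

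The endothelial and mesothelial markers are given beside *Vcam1* and *Icam1*, since such cells are known to express both genes. The summed level of 7 endothelial markers was 3.37 and 1.98 CPM in the controls and 0.902 to 1.12 CPM with miR-200 (*Kdr* 2.31 and 1.82 CPM against 0.405 to 0.690 CPM), with *Cldn5* and *Emcn* at 0 in every sample and *Cdh5* at most at 0.122 CPM. The paper reports *Kdr* as detected in the CAFs by RT-qPCR and lower with miR-200, so *Kdr* need not mark endothelial cells here. The summed level of 4 mesothelial markers was 5.92 and 6.98 CPM in the controls and 1.11 to 1.62 CPM with miR-200, nearly all of it *Msln*, with *Lrrn4* at 0 throughout. The leukocyte list of 7 genes summed to 13.5 and 15.0 CPM in the controls and 15.6 to 16.6 CPM with miR-200, with the macrophage marker *Adgre1* at 0 in all samples and *Ptprc* at most at 0.0404 CPM. In that list *Lyz2* was higher (log2 fold-change 1.91, adjusted *p* = 0.00395, limma), and *Cd14*, *Csf1r* and *Cd68*, at 2.25 to 6.70 CPM, had log2 fold-changes of -0.44, -0.46 and -0.14 that did not pass (adjusted *p* = 0.159, 0.25 and 0.758, limma). Of the 7 epithelial markers none reached 1 CPM, with *Sftpc*, *Nkx2-1* and *Krt18* at 0, and all 10 fibroblast markers exceeded 1 CPM in every sample. The fibroblast list summed to 15408 CPM in CAF-vec replicate 1 and to 8416 to 9091 CPM in the other 4 samples. At an adjusted *p* under 0.05, 4 of its genes rose by limma (*Dcn*, *Lum*, *Thy1* and *Fn1*, log2 fold-changes 2.75, 2.82, 1.46 and 0.44) and 0 fell. Of all tested genes 11.9% rose and 18.6% fell by that rule. *Col3a1* had higher values with an unadjusted *p* of 0.0173 (log2 fold-change 1.02, limma). *Col1a1* and *Pdgfrb* had lower values with an unadjusted *p* of 0.0417 and 0.0295 (limma). An unadjusted *p* under 0.05 was reached by 44.9% of all tested genes. The part of the *Msln*, *Kdr*, *Lyz2* and fibroblast marker differences in the NF-κB values was not tested.

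Levels can be set against each other only per length, and CPM was divided by the length of the principal transcript in GENCODE M21 for that purpose. In CAF-vec the order was *Vcam1* (37.7 CPM per kb), *Rela* (30.5), *Nfkbia* (22.0), *Nfkb1* (11.1), *Nfkb2* (10.1), *Relb* (7.54), *Nfkbiz* (5.81), *Birc3* (3.67), *Tnfaip3* (0.432 CPM per kb) and *Icam1*. Of these neighbours, *Nfkb1* (9.84 to 12.3 CPM per kb) and *Nfkb2* (9.08 to 11.1) overlapped in their range over samples. In CAF-200 *Nfkbia* (35.2 CPM per kb) stood above *Rela* (29.1), and *Nfkb2* (11.8) and *Nfkbiz* (10.2) stood above *Nfkb1* (7.77), with no neighbours overlapping. The order depends on the length used: by the union of all exons *Rela* came first in CAF-vec and *Nfkbia* first in CAF-200, with *Vcam1* the third in both.

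Promoters, from 250 bases before to 50 after a start site (RefSeq, GRCm38.p6), were in the reference table for *Nfkb2*, *Rela*, *Nfkbia*, *Tnfaip3*, *Birc3* and *Icam1*. They were searched on both strands for the 10-base κB consensus, to which NF-κB dimers bind, and for the 9-base motif GGANNNTCC, which can overlap it. The consensus was in 8.46% of all 32851 promoters, the shorter motif in 8.62%, and at least 1 of them in 13.5%. Counted by promoter, a match was held by 3 of 3 for *Nfkb2*, of which 2 overlap, by 1 of 2 for *Tnfaip3*, by the 1 each of *Nfkbia* and *Icam1*, and by 0 of the 1 each of *Rela* and *Birc3*. Windows of 30 bases are shown for matches of *Nfkbia* and *Tnfaip3*, which rose, and of *Icam1* and *Nfkb2*, with the motif in capitals and its distance from a listed start site.
*Nfkbia*, 29 bases before the start, minus strand (chr12:55492657-55492686): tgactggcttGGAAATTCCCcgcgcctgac
*Nfkbia*, 178 bases before the start, minus strand (chr12:55492807-55492836): cctggtcgggaGGACTTTCCagccactcag
*Tnfaip3*, 24 bases before the start, minus strand (chr10:19015416-19015445): gtcacgtgactGGAATTTCCatcggaaatc
*Tnfaip3*, 12 bases before the start, minus strand (chr10:19015403-19015432): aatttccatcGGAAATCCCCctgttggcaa
*Icam1*, 153 bases before the start, plus strand (chr9:21015776-21015805): tacttcagtttGGAAATTCCtagatcgcag
*Nfkb2*, 39 bases before its first listed start, plus strand (chr19:46304688-46304717): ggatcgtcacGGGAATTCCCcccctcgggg
The capitals of *Icam1* are the first 9 of the 10 letters in the *Nfkbia* match nearest its start. A match describes these letters and not occupancy by a factor.

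The wider pathway was described with 9 lists of 111 genes, of which 84 were tested. Of these, 25 were higher and 11 lower at an adjusted *p* under 0.05 (29.8% and 13.1%, against 11.9% and 18.6% of all tested genes), and 48 did not pass. Of the 84, *Cxcl5*, *Lif*, *Alcam* and *Selp* met the filter on low values through CAF-200 alone and *Nfkbid* through CAF-vec alone, so their difference is tied to their being tested, and without them 22 of 79 were higher and 10 lower. Without CAF-vec replicate 2 the count was 33 higher and 29 lower, in a fit where 24.9% and 39.7% of all genes were so called. With any 1 CAF-200 sample left out it was 10 to 13 higher and 1 to 3 lower, where 3.56% to 4.34% and 3.96% to 5.74% of all genes were, and 0 genes of the lists then passed both thresholds in limma. As 0 to 1 of all 12175 genes passed both upward and 0 downward in those fits, that loss was general.

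Inside the IκB family, 3 of 6 genes rose and 1 fell, the fall being that of *Nfkbid*, which was tested through its CAF-vec values alone. By the same rule 11.9% of all tested genes rose and 18.6% fell. Beside *Nfkbia* and *Nfkbiz*, *Bcl3*, a nuclear IκB that binds p50 and p52, was at 7.59 and 4.95 CPM in the controls and at 14.2, 12.3 and 10.6 CPM with miR-200 (log2 fold-change 0.94, adjusted *p* = 0.0228, limma). *Nfkbid*, another nuclear member, had a mean of 1.05 CPM in the controls and 0.399 CPM with miR-200 (log2 fold-change -0.79, adjusted *p* = 0.0164, limma). The cytoplasmic inhibitors *Nfkbib* and *Nfkbie* had log2 fold-changes of -0.58 and -0.42 that did not pass (adjusted *p* = 0.0587 and 0.0651, limma).

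Of 10 kinases of the pathway and their adaptors, 3 fell and 1 rose (30.0% and 10.0%, against 18.6% and 11.9% of all tested genes). *Ikbke* and *Tbk1*, the IκB kinase relatives better known for interferon induction, had log2 fold-changes of -0.60 and -0.48 (adjusted *p* = 0.0222 and 0.0126, limma), and *Tab1* was also lower (-0.51, adjusted *p* = 0.0447, limma). With quantile normalization or centring on medians 2 of the 10 fell, and without CAF-vec replicate 2 it was 7, with 39.7% of all genes lower in that fit. *Map3k14*, which encodes NIK, the kinase of the non-canonical pathway, rose from 12 and 12.5 CPM to 16.1, 17.5 and 15.5 CPM (log2 fold-change 0.40, adjusted *p* = 0.0287, limma). *Ikbkg*, which encodes NEMO, was at 191 CPM in CAF-vec replicate 1 and 88.4 CPM in replicate 2, so its CAF-200 values of 114 to 119 CPM lay between them.

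Among 20 tested receptors and adaptors, 5 rose and 3 fell (25.0% and 15.0%, against 11.9% and 18.6% of all tested genes). *Il1rap*, the accessory chain of the IL-1 receptor, was at 9.25 and 9.97 CPM in the controls and at 18.8, 21 and 19.5 CPM with miR-200, past both thresholds (log2 fold-change 1.00, adjusted *p* = 0.00331, limma). *Il1r1*, the ligand-binding chain, and *Irak2* and *Irak3* of the IRAK family had log2 fold-changes of 0.65, 0.45 and 0.56 (adjusted *p* = 0.0093, 0.0113 and 0.0407, limma). *Myd88*, *Irak1*, *Irak4* and *Traf6* of the same pathway did not pass. Their log2 fold-changes were -0.00385, -0.14, -0.05 and -0.08 (adjusted *p* = 0.981, 0.33, 0.76 and 0.542, limma). *Tnfrsf12a*, the receptor of TWEAK, also rose (0.74, adjusted *p* = 0.0139, limma). The Toll-like receptors *Tlr4* and *Tlr2* fell (log2 fold-changes -0.73 and -0.57, adjusted *p* = 0.0114 and 0.0158, limma). *Traf5*, an adaptor of TNF receptors, fell past both thresholds, from 31.3 and 21.1 CPM to 10.5 to 11.4 CPM (log2 fold-change -1.18, adjusted *p* = 0.00806, limma). Without the low-value filter, or with replicate number in the model, 0 list genes fell past both thresholds, *Traf5* included. Over all genes 194 and 70 did so in those fits.

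Of 13 tested feedback regulators, *Tnfaip3* rose and *Tnip2*, whose product binds A20, fell (log2 fold-change -0.77, adjusted *p* = 0.00873, limma), and 11 did not pass. Each direction thus held 7.69% of the list, where 11.9% of all tested genes rose and 18.6% fell. The median log2 fold-change of the list was -0.13, near the -0.094 of all tested genes, and it was -0.04 with quantile normalization or centring.

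Of the secreted and enzyme targets, 9 of 13 tested genes were higher and none lower by limma (1, *Tnfaip2*, was lower at an unadjusted *p* of 0.0489), or 7 of 11 without *Cxcl5* and *Lif*. By the same rule 11.9% of all tested genes were higher and 18.6% lower. The median log2 fold-change was 1.16 over the 13 genes and 0.93 over the 11. *Cxcl1*, *Ccl2*, *Cxcl5*, *Ccl7* and *Tnfaip6* passed both thresholds. *Ccl2*, the monocyte chemoattractant, was at 15.7 and 32.0 CPM in the controls and at 114, 125 and 101 CPM with miR-200 (log2 fold-change 2.31, adjusted *p* = 0.0057, limma), and *Cxcl1*, a neutrophil chemoattractant, at 2.01 and 2.43 against 27.1, 29.5 and 19.7 CPM. *Cxcl5*, tested through its CAF-200 values alone, was at 0 and 0.00975 CPM in the controls and at 0.842 to 1.15 CPM with miR-200. *Il6*, *Lif*, *Ptgs2* and *Csf1* were higher at an adjusted *p* under 0.05 (log2 fold-changes 1.37, 1.47, 0.93 and 0.83). The other 13 genes of the list were too low to test, with *Il1a*, *Il1b* and *Nos2* at 0 in all samples and *Tnf* at most at 0.0203 CPM. *Sod2* and *Plau*, also known targets, had log2 fold-changes of 0.13 and 0.14 that did not pass (adjusted *p* = 0.313 and 0.358, limma).

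Of 7 tested survival and other nuclear targets, *Ier3*, *Junb* and *Xiap* rose (log2 fold-changes 1.01, 0.78 and 0.35) and *Gadd45b* fell (-0.72, adjusted *p* = 0.0136, limma). These are 42.9% and 14.3% of the list, where 11.9% of all tested genes rose and 18.6% fell. *Ier3*, an early response gene, had an adjusted *p* of 0.0158 (limma) and CAF-vec values of 60.8 and 95.7 CPM against 149 to 164 CPM. Of 7 tested adhesion molecules, *Ncam1* and *Alcam* were higher and none lower by limma, and *Alcam*, at 0.104 and 0.259 CPM in the controls and 0.514 to 0.731 CPM with miR-200, was tested through its CAF-200 values alone. *Ncam1*, the neural cell adhesion molecule, was at 2.31 and 2.64 CPM in the controls and at 23.4, 23.1 and 26.0 CPM with miR-200 (log2 fold-change 3.05, adjusted *p* = 0.000837, limma). Adhesion genes at an unadjusted *p* under 0.05 were *Ncam1*, *Alcam*, *Selp* and *Sele*. Among the integrin partners of ICAM-1 and VCAM-1, *Itgb1* rose (log2 fold-change 0.55, adjusted *p* = 0.0161, limma), *Itgb2* fell from 1.42 and 1.22 CPM to 0.385 to 0.611 CPM, and *Itga4* was at 0 in every sample.

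**Figure D4:**
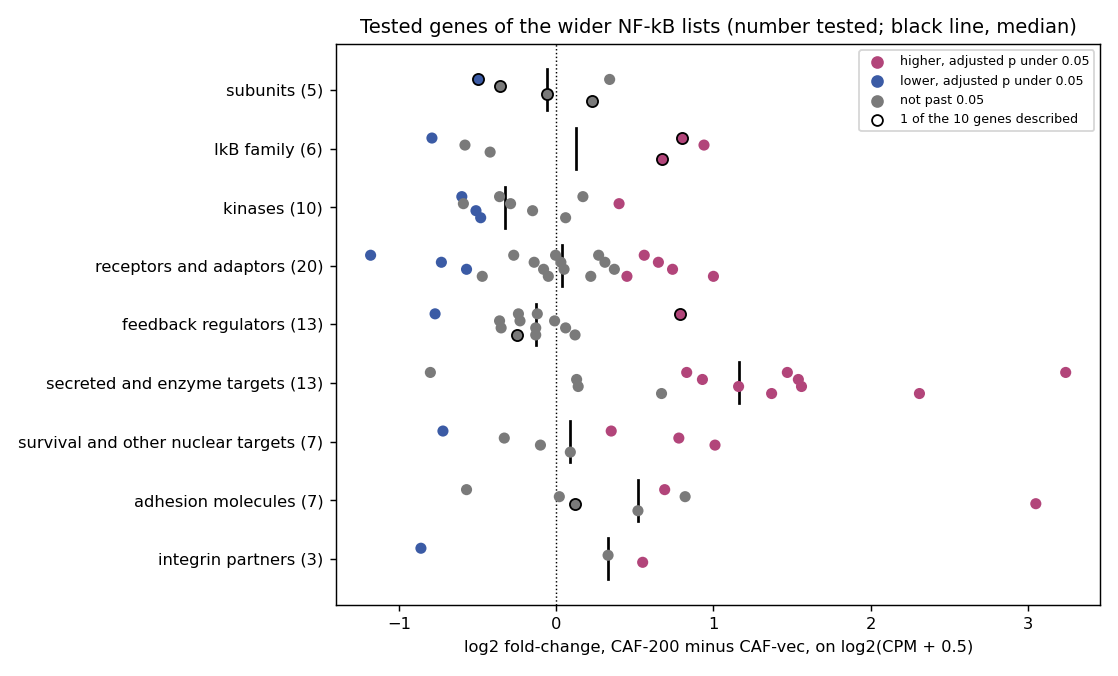
Log2 fold-changes (CAF-200 minus CAF-vec, on log2(CPM + 0.5)) of the 84 tested genes of the 9 NF-κB lists; points are genes, colored by the adjusted *p* of limma, ringed points are the genes described in full and black lines are list medians. Secreted and enzyme targets reach furthest right, with a median of 1.16 (0.93 without *Cxcl5* and *Lif*) and *Cxcl1* at 3.24, while subunits stay between -0.50 and 0.34.

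The spread behind these values was uneven between the groups, whose columns also differ in their low values as described, and the part of the latter was not tested. Of the 84 genes, 19 differed by more than 0.5 log2 units between the CAF-vec samples and at most 1 did between any pair of CAF-200 samples. As a check of the overexpression, the known miR-200 targets *Zeb1* and *Zeb2* were read. *Zeb1* was at 43.5 and 50.7 CPM in the controls and below both, at 37.8, 37.5 and 34.1 CPM, with miR-200 (log2 fold-change -0.36, adjusted *p* = 0.0504, limma), and *Zeb2* at 46.2 and 29.8 CPM against 31.9, 31.8 and 31.1 CPM, with overlap (-0.23, adjusted *p* = 0.374, limma). The miRNAs themselves are not measured by these libraries. The paper measured miR-200a, miR-200b and miR-429 in CAF-vec and CAF-200 by RT-qPCR and reports their overexpression, with lower *Zeb1* mRNA by RT-qPCR.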

How the data were processed

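The authors deposited 1 table of CPM values (named for TMM) for 5 mRNA libraries. The submitters' notes list FastQC, cutadapt, Trimmomatic, STAR, RSEM and edgeR on GRCm38 (mm10), with no versions. The values are not whole multiples of a read's worth, so no count test was run and depth is unknown. The authors tested with edgeR. Here limma 3.58.1 in R 4.3.3 was run on log2(CPM + 0.5) with a trended prior variance, after a check on simulated data. That check gave both groups the same spread for each gene, so it does not cover the uneven spread of these data. A gene was tested if 2 or more samples reached 0.5 CPM, which 12175 did. Symbols, positions and transcripts came from GENCODE M21 by Ensembl identifier (21795 of 21835 matched) as did 3′-UTR sites, and miRNA and promoter sequences came from RefSeq. All 10 genes are named, and from each wider list up to 4 genes with the largest changes at an adjusted *p* under 0.05 and all past both thresholds. Other list genes were named after their values were seen. The genes and lists were chosen with earlier results of these data known. Alternatives were other pseudocounts (0.1 and 1 CPM), filters, scalings, a flat prior variance, leaving out each sample, and a replicate block. Figures used matplotlib 3.10.9.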

Additional observations from a re-analysis of the deposited data

How the results depend on the processing

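The tests cannot be set against depth, which is unknown, and 2 CAF-vec samples limit every call. EdgeR was not run, as the values are no whole multiples of a read's worth. Where 1 control is dropped, the lone one is assumed to vary like CAF-200. Fold-changes of single genes kept direction and side of 0.05 in 104 of 117 refits, and *Rela* reversed under quantile normalization (0.0239), median centring (0.0319) and without CAF-vec replicate 2 (0.0427), its range being -0.17 to 0.0427 with each sample left out. The cause of these changes was not tested.

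The 0 genes higher and 0 lower past both thresholds became 3 and 1 at an adjusted *p* under 0.05 with any fold-change, and stayed from 0 to 0 with each sample left out. The 3 higher at that adjusted *p* ranged from 2 to 4, and the 1 lower from 0 to 2, with each sample left out. Of the wider lists, the 7 higher and 1 lower past both thresholds became 25 and 11 at an adjusted *p* under 0.05, 4 higher with a pseudocount of 1 CPM and 0 lower without a filter, and ranged from 0 to 11 and from 0 to 2 with each sample left out. The 25 higher and 11 lower at an adjusted *p* under 0.05 ranged from 10 to 33 and from 1 to 29. Of the calls over all tested genes at that threshold, 39.0% were higher, against 48.5% with quantile normalization and 51.6% with centring. For the wider lists these shares were 69.4%, 73.7% and 75.0%.

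With the replicate block, which leaves CAF-200 replicate 3 out of the fold-change, calls fell over all 12175 genes to 5.17% higher and 7.0% lower at an adjusted *p* under 0.05, and to 101 and 70 past both thresholds from 289 and 286. Of the 9 tested genes, 2 were higher (*Nfkbia* and *Nfkbiz*, adjusted *p* = 0.0462 and 0.0297, limma) and 0 lower at an adjusted *p* under 0.05, *Nfkb1* having 0.0799 and *Tnfaip3* 0.0733. Of the wider lists, 4 were higher and 0 lower past both thresholds, and 15 higher and 3 lower at an adjusted *p* under 0.05. The kinases then held 0 higher and 0 lower, and the receptors and adaptors 1 higher and 2 lower. Same-numbered samples share only a number, and the deviations from their group means correlated at 0.249 and 0.134 across genes.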
